A study of Mus musculus with 6 samples.

Results

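The genes described here are 43 members of the cell-division programme, of 32285 genes counted in each library. They were taken by gene symbol from a list of proliferation genes and kept apart by phase: 16 genes of DNA synthesis (S phase), 26 genes of the G2 phase and mitosis, called mitotic members below, and Stmn1, a microtubule regulator placed in neither group. Each symbol was found once in the files. Members were measured in myeloid, T and epithelial cells of mouse colon after a haematopoietic transplant, and levels are unique molecular identifiers (UMIs) of a gene in counts per 1e6 UMIs of the gated cells of a library (CPM).

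The libraries are 10x single-cell RNA libraries of mouse colon. One pair holds donor CD11b+ CD64+ macrophages of mice given bone marrow alone (the BM library) or bone marrow with added spleen cells (the GVHD library, for graft-versus-host disease). The other 4 hold donor macrophages and donor T cells of wild-type (WT) and of IL-34-/- recipients (here IL34KO), made to ask what interleukin 34, a ligand of the macrophage receptor CSF1R, does to these cells. The labels state no strain, age, sex, animal number, conditioning or day after transplant. All groups share the transplant, and no untransplanted colon was analysed here.

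Each group is 1 library, so there is no replicate check, no test and no p-value. Intervals are exact 95% intervals that cover counting error only, and a difference between 2 libraries compares those libraries, not the conditions. The libraries held 4169 to 18360 barcodes and 43660889 to 114425913 UMIs, and 2546 to 14061 cells passed the filters. The BM and GVHD libraries shared 2502 barcodes, against 5 to 75 for the other pairs, and the BM copies of these were dropped. Myeloid, T and epithelial gates used 15 markers each. The libraries labelled as T cells held 22.5% (WT) and 20.9% (IL34KO) T-gated cells and 57.8% and 54.6% myeloid-gated cells, while the libraries labelled as macrophages held 48.6% to 83.7% myeloid-gated cells. Cd3e, a chain of the T-cell receptor complex, measured 318 to 546 CPM in T-gated cells and 0.193 to 2.44 CPM in myeloid-gated cells, and Fcgr1, which encodes CD64, measured 82.8 to 118 CPM in myeloid-gated and 0 to 2.92 CPM in T-gated cells. Il34 was not lower in the libraries labelled IL34KO (2.30 CPM against 1.76 in the macrophage libraries and 1.55 against 1.18 in the T-cell libraries), so directions below are given for the library labelled IL34KO.

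Cells pass through division with successive waves of transcription. E2F factors, released from the retinoblastoma protein, switch on the S-phase genes that license origins, make nucleotides and run the replication fork. Later a MuvB complex with B-MYB and FOXM1 acts through the cell cycle genes homology region (CHR) and nearby CCAAT boxes of the mitotic genes, whose products build the spindle, hold the checkpoint and split the cell. In the colon the crypt base renews the epithelium by steady division, T cells divide when they meet antigen, and most tissue macrophages divide slowly or are replaced from monocytes.

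The S-phase and mitotic members differed in their promoter letters, which is why promoters of both are shown. Of the 43 members 35 had a promoter in the RefSeq table (GRCm38.p6), and Aurkb, Ccna2, Ccne2, Gins2, Kif20a, Mcm4, Stmn1 and Tpx2 had no entry. The window searched ran from 250 bases before to 50 after the start, on both strands. A CHR core (TTTGAA or TTCGAA) lay in 18 of 22 mitotic promoters (81.8%), in 2 of 13 S-phase promoters (15.4%, Mcm2 and Mcm7) and in 21.7% of all 27018 genes with a promoter. An E2F core, which here is TTCCCGC or has the form TTCGCGC, the form TTGCCGC or the form TTGGCGC, lay in 8 of 13 S-phase promoters (61.5%), in 4 of 22 mitotic promoters (18.2%) and in 10.9% of all. A CCAAT box (CCAAT) was present in 20 of 22 mitotic promoters (90.9%), 9 of 13 S-phase promoters (69.2%) and 41.1% of all. A CHR core and a CCAAT box stood together in 18 mitotic promoters (81.8%), in 2 S-phase promoters (15.4%) and in 8.61% of all. The TTGGCGC form of the E2F core can share its letters with a CCAAT box. Matches are letters in a window and show no bound factor.

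Promoters of 4 members of each group follow, 200 bases before to 30 after the start, 5′ to 3′ on the gene's strand, with every motif match on either strand in capitals.
Mcm5 (ENSMUSG00000005410) at chr8:75109309-75109538 (+ strand) holds 3 E2F cores, Mcm6 (ENSMUSG00000026355) at chr1:128359676-128359905 (- strand) holds 4, with the start of another that runs past the window's end, and Pclaf (ENSMUSG00000040204) at chr9:65890123-65890352 (+ strand) holds 2 close to its start. Pcna (ENSMUSG00000027342) at chr2:132253151-132253380 (- strand) has a CCAAT box and no E2F core of these forms. Matches on either strand were counted apart, and in Mcm5 and Mcm6 some of them share letters, so the counts are not of separate sites.
Mcm5: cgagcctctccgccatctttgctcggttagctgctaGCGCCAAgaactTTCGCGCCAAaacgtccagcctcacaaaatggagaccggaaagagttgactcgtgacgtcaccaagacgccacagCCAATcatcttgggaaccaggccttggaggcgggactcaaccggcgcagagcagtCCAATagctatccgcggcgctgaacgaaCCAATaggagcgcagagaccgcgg
Mcm6: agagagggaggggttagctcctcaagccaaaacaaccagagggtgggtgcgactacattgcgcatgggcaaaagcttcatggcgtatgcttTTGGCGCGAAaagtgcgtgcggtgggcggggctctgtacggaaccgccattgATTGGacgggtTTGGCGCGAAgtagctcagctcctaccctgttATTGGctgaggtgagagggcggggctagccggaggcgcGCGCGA
Pclaf: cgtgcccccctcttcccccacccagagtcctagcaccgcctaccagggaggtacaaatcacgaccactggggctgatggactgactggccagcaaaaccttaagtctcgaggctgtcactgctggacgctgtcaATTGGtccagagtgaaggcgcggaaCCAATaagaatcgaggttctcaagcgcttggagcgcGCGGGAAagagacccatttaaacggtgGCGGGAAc
Pcna: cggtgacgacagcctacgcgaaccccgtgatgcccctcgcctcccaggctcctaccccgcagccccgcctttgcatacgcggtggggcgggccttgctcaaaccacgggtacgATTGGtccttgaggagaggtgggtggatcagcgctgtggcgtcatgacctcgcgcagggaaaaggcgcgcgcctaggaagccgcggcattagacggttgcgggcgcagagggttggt
Mki67 (ENSMUSG00000031004) at chr7:135716350-135716579 (- strand), Top2a (ENSMUSG00000020914) at chr11:99024160-99024389 (- strand) and Ccnb2 (ENSMUSG00000032218) at chr9:70421525-70421754 (- strand) each hold CHR cores and CCAAT boxes, and Mki67 also an E2F core. Bub1b (ENSMUSG00000040084) at chr2:118598011-118598240 (+ strand), whose levels depart most from the other mitotic members below, holds a CHR core near the far end of this window and a CCAAT box. It has another CHR core, TTTGAA, at position 41 after the start, inside the window searched but past the stretch printed.
Mki67: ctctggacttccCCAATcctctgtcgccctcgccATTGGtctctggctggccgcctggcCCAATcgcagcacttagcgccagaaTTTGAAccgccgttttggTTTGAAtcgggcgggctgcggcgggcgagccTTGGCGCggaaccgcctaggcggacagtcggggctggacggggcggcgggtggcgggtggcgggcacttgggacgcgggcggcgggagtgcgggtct
Top2a: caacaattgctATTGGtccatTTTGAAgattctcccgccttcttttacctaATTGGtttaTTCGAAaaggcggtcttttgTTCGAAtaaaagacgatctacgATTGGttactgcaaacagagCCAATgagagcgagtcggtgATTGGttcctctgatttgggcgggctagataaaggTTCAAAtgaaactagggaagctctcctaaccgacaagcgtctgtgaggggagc
Ccnb2: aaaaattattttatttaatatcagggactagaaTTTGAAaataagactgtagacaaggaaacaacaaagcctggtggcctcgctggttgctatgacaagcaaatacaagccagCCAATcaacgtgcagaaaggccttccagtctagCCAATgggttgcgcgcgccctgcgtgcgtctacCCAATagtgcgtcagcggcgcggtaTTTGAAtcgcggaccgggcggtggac
Bub1b: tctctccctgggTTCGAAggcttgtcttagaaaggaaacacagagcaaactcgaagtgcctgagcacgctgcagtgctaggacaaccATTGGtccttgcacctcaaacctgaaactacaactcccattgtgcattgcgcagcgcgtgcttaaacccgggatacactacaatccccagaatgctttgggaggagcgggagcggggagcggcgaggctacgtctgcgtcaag

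Across cell types, T cells and epithelial cells held more of most members than myeloid cells of the same library. In T cells 15 of 16 S-phase and 25 of 26 mitotic members were higher than in myeloid cells in all 6 libraries and 0 were lower in all 6, where 41.9% of the 12104 genes compared were higher and 23.5% lower. The median over members of the T over myeloid ratio was 4.58 for the S-phase and 5.49 for the mitotic group. Epithelial cells, compared in the 4 WT and IL34KO libraries because BM had 9 and GVHD 39 of them, were above myeloid cells in all 4 for 14 S-phase and 25 mitotic members and below them in all 4 for 1 mitotic member, Bub1b, beside 61.2% of 11741 genes above and 29.5% below, with medians of 2.87 and 4.93. Summed over members, epithelial cells held 1.98 to 2.46-fold the S-phase level and 3.16 to 4.27-fold the mitotic level of myeloid cells. Their median ratio over the 4 libraries was under 1 for Pcna (0.90) and Bub1b (0.393).

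**Figure D1:**
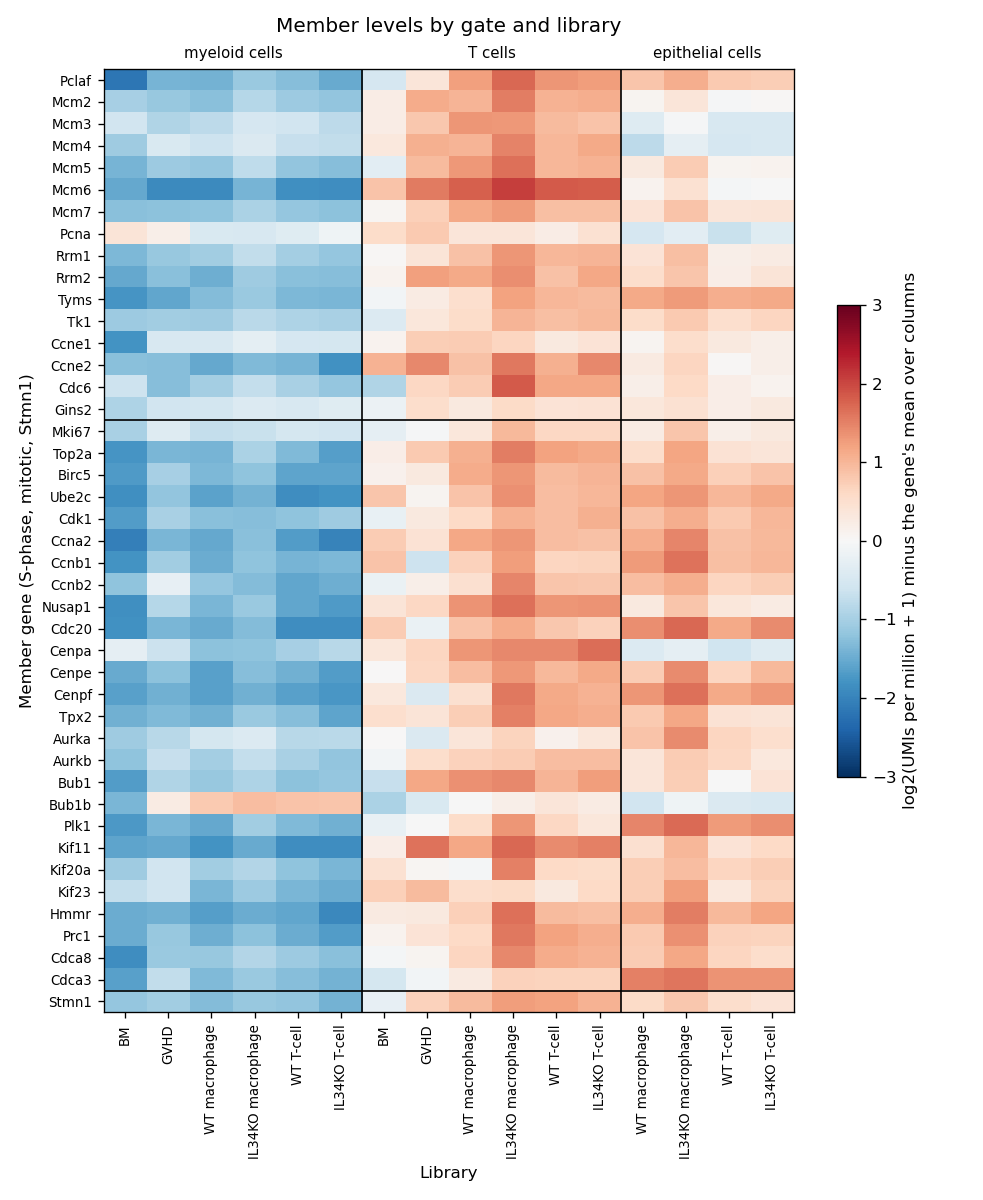
Log2 of CPM plus 1 of each of the 43 members (rows: S-phase, mitotic, Stmn1), minus the gene's mean over the columns, in the myeloid, T and epithelial gates of each library with at least 50 such cells (columns). Blue is below and red above the gene's mean. Myeloid columns are blue for nearly all members, and Bub1b is the mitotic row that is red in 5 of the 6 myeloid columns.

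Among the S-phase members, Mcm5, a subunit of the replicative helicase, measured 8.66, 10.9, 10.4, 13.8, 10.1 and 9.42 CPM in myeloid cells, in the order BM, GVHD, WT macrophage, IL34KO macrophage, WT T-cell and IL34KO T-cell library. In T cells it measured 19.3, 47.5, 61.7, 78.7, 49.5 and 51.2 CPM. The ranges of the 2 gates did not overlap. Pcna, the sliding clamp of the replication fork, was closer between gates, with 156, 135, 86.8, 84.9, 92.8 and 109 CPM in myeloid cells and 174, 206, 154, 152, 138 and 163 CPM in T cells. It led the S-phase UMIs of myeloid cells in every library. Ccne2, a cyclin that drives entry into S phase, stood 6.91 to 18.2-fold higher in T than in myeloid cells, and Cdc6, which loads the helicase, was the S-phase member that did not keep the order in all 6 libraries (0.780-fold in BM, from 2.75 CPM in T cells, and up to 7.45-fold elsewhere).

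Mitotic members separated the gates further. Top2a, the topoisomerase that untangles sister chromatids, measured 34.2, 45.6, 45.0, 61.5, 47.0 and 37.3 CPM in myeloid cells, and 137, 208, 250.3, 346, 279 and 263 CPM in T cells. The lowest T value was above the highest myeloid value. Mki67, which coats mitotic chromosomes and is the usual proliferation marker, was an exception in size, with 82.8, 125, 100.3, 103, 114 and 110.3 CPM in myeloid cells and 136, 161, 209, 322, 253 and 254 CPM in T cells. Its T over myeloid ratio was 1.28 to 3.11, while Kif11, the motor that pushes spindle poles apart, reached 3.67 to 11.8-fold and Hmmr, a spindle-associated protein, 3.71 to 10.3-fold.

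Bub1b, a kinase-related component of the spindle checkpoint, was lower in T than in myeloid cells in 5 of 6 libraries and lower in epithelial than in myeloid cells in all 4 compared. Its myeloid levels were 9.25, 30.3, 44.7, 49.8, 47.0 and 46.5 CPM, its T-cell levels 12.9, 18.3, 25.4, 29.2, 32.9 and 30.5 CPM, and its epithelial levels in the last 4 libraries 16.8, 23.2, 18.7 and 18.0 CPM. The BM library was the one with the lowest myeloid level and the one in which T cells were higher. Bub1, the partner kinase of the same checkpoint, kept the common order, at 2.75 to 5.42 CPM in myeloid and 6.43 to 31.5 CPM in T cells. The annotation (mm10, GENCODE M21) places Bub1b at chr2:118598211-118641591 on the + strand, with no other gene of the count files over it. Genes outside these files were not searched. For 11 of the 43 members, exons of a counted gene on the other strand overlap their own (Mcm7, Tk1, Ccne2, Gins2, Ube2c, Ccna2, Nusap1, Cdc20, Kif20a, Prc1 and Cdca8). The sources used here do not say whether the counting used strand.

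Between T cells and epithelial cells the counts were read against those of all genes. In the 4 libraries compared, 13 of 16 S-phase members were higher in T cells in all 4 and Tyms was lower in all 4 (0.636 to 0.956-fold), where 39.5% of 12185 genes were higher and 42.6% lower in all 4. Of the 26 mitotic members 8 were higher and 7 lower in all 4, both shares under those of all genes. The 8 included Cenpa, the histone H3 of centromeres (3.36 to 4.29-fold), Nusap1, which bundles spindle microtubules (1.77 to 2.17-fold), Bub1 (1.64 to 2.15-fold) and Kif11 (1.62 to 2.03-fold). The 7 included the activator of the anaphase-promoting complex Cdc20 (0.597 to 0.790-fold), the mitotic kinases Plk1 (0.463 to 0.758-fold) and Aurka (0.579 to 0.888-fold), and Cdca3, a mitotic-entry factor (0.413 to 0.626-fold). Summed over members, T cells held 1.75 to 1.84-fold the S-phase level and 1.09 to 1.37-fold the mitotic level of epithelial cells.

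**Figure D2:**
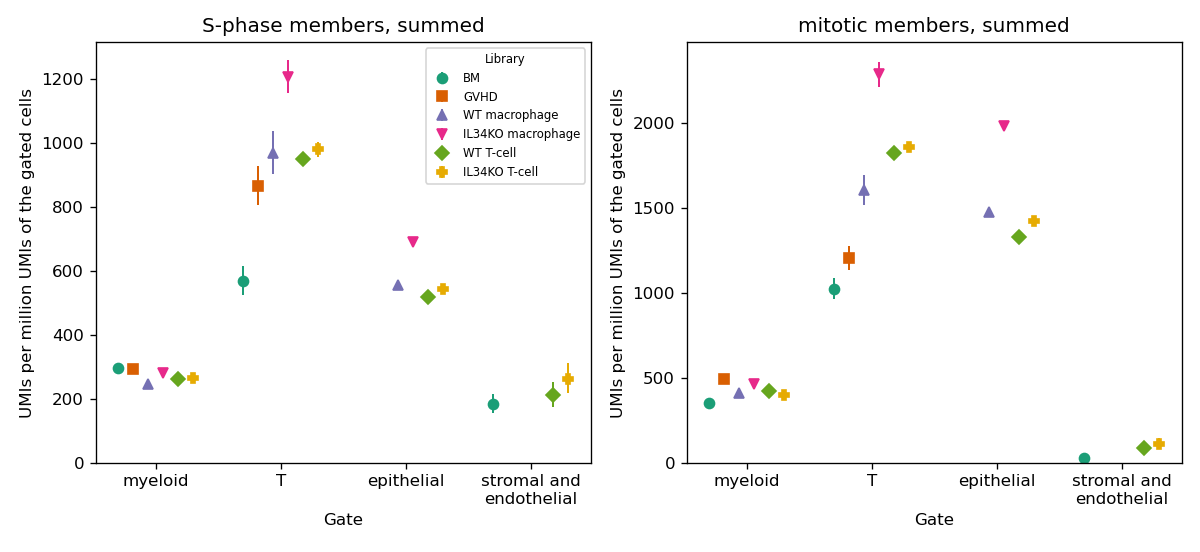
Summed CPM of the S-phase (left) and mitotic (right) members by gate and library with at least 50 cells, with exact 95% Poisson intervals (counting error only). Mitotic sums lie between 350.1 and 493 CPM in myeloid, between 1024 and 2285 CPM in T and epithelial and between 29.95 and 109.8 CPM in stromal and endothelial cells.

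Stromal and endothelial cells, taken as a background after the data were seen, were set beside these sums. In the 3 libraries with at least 50 of them, their S-phase sum was 182, 211 and 261 CPM (BM, WT T-cell, IL34KO T-cell) beside 295, 261 and 264 CPM in myeloid cells. Their mitotic sum was 29.95, 88.6 and 109.8 CPM beside 350.1, 421 and 399.8 CPM. In the IL34KO T-cell library myeloid cells were thus level with this background in the S-phase members. In the mitotic members they were clear of it, but not of the background sets chosen first. Of these, absorptive colonocytes held 911, 650 and 877 CPM (IL34KO macrophage, WT T-cell, IL34KO T-cell), beside 465, 421 and 399.8 in myeloid cells. Cells set aside for neutrophil markers held 626, 455.5, 522.5 and 510 CPM (GVHD, WT macrophage, IL34KO macrophage, WT T-cell), beside 493, 407, 465 and 421.

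The split between phases differed by gate. S-phase UMIs were 45.8% of S-phase plus mitotic UMIs in BM myeloid cells and 37.3% to 39.8% in the other 5 myeloid groups. T cells ranged from 34.3% to 41.8% and epithelial cells from 25.8% to 28.0%. With the member of most UMIs left out of each phase (Pcna and Mki67 in BM), the BM share was 34.4% beside 30.1% in GVHD and 34.0% to 35.4% in the others.

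**Figure D3:**
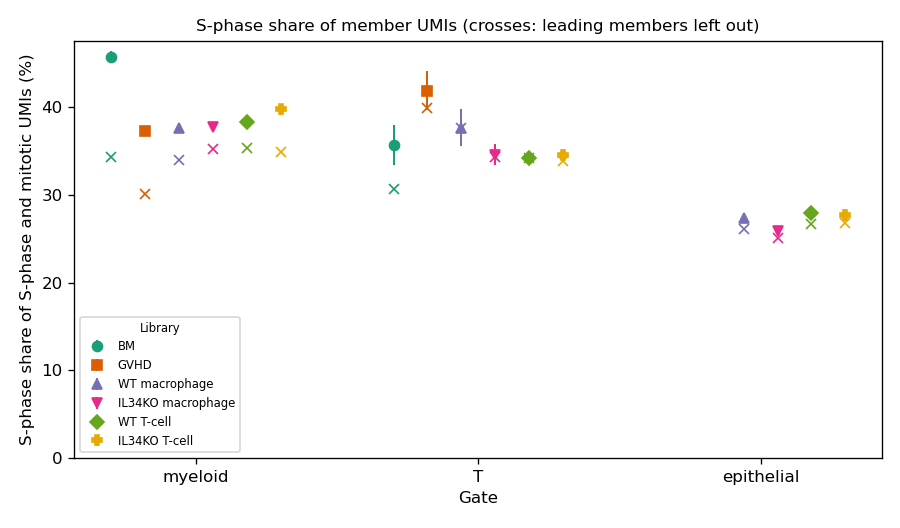
S-phase UMIs as a percentage of S-phase plus mitotic UMIs, by gate and library with at least 50 cells, with exact 95% binomial intervals (counting error only, points); crosses leave out the member of most UMIs in each phase. Epithelial points lie lowest, at 25.8% to 28.0%, and the BM myeloid point of 45.8% goes with a cross at 34.4%.

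Per cell, the same members were counted after each cell was thinned to 1500 UMIs, since the median depth of myeloid, T and epithelial groups of at least 50 cells ran from 2812 UMIs (T cells of the WT T-cell library) to 25776 (epithelial cells of the WT macrophage library). At least 2 UMIs of mitotic members were found in 5.55%, 11.5%, 9.12%, 9.75%, 8.73% and 8.50% of myeloid cells, in the same order of libraries. T cells gave 13.2%, 19.9%, 17.1%, 27.3%, 27.1% and 24.2%, and epithelial cells of the last 4 libraries 34.7%, 44.4%, 25.7% and 25.2%. Stromal and endothelial cells gave 0 of 90 cells in BM and 1.24% and 2% in the T-cell libraries. Absorptive colonocytes, chosen first as background together with the neutrophil-marker cells, gave 21.5%, 10.7% and 9.54% in the IL34KO macrophage, WT T-cell and IL34KO T-cell libraries. The myeloid shares lay below those and are not read as shares of dividing cells. The absorptive colonocytes were not a clean background, since those with an Mki67 UMI held means of 5, 5.28 and 3.84 other mitotic UMIs. Those without held 0.592, 0.318 and 0.292. Lying below this set therefore does not show whether myeloid cells divide. T cells lay above the stromal set in every library where it had 50 cells, and above the absorptive colonocytes in each of these 3 libraries, with intervals that overlapped in the IL34KO macrophage library (22.2% to 32.9% against 15.1% to 29.1%).

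**Figure D4:**
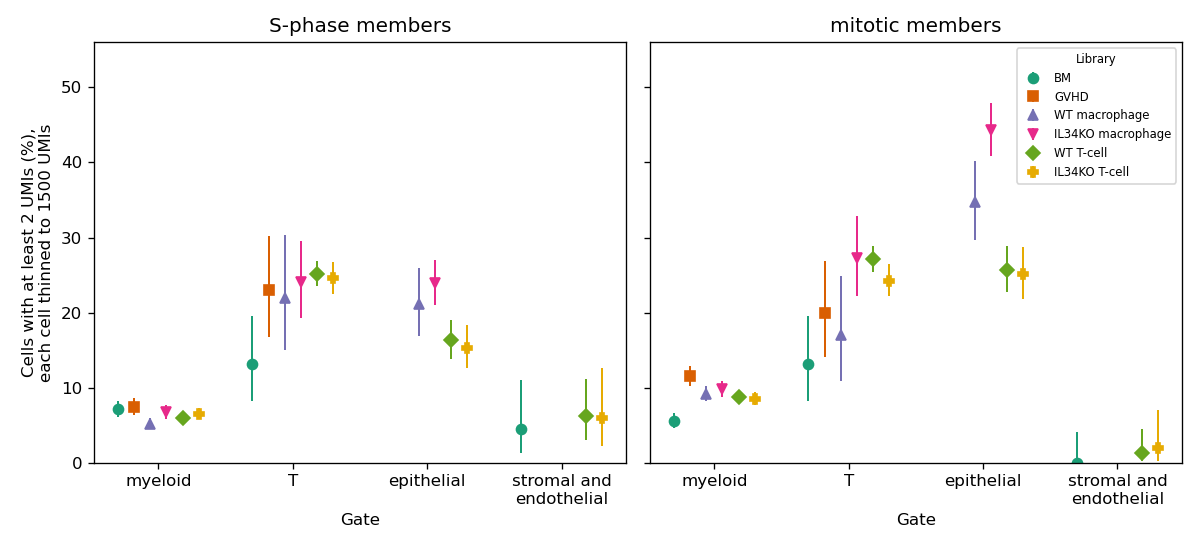
Percentage of cells with at least 2 UMIs of S-phase members (left) or mitotic members (right), each cell thinned to 1500 UMIs, by gate and library with at least 50 cells, with exact 95% binomial intervals. T and epithelial groups lie above the myeloid groups in each library, and the stromal and endothelial groups lie between 0 and 2% for the mitotic members.

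S-phase members gave a weaker separation from background. At least 2 of their UMIs were found in 5.19% to 7.37% of myeloid cells and in 4.44% to 6.21% of stromal and endothelial cells (groups of at least 50 cells), so the myeloid S-phase share is at the level of that background. T cells gave 13.2% to 25.1% and epithelial cells 15.3% to 23.9%. For all 43 members together the myeloid shares were 14.6%, 22.2%, 16.7%, 17.8%, 16.8% and 17.3%, and the T-cell shares 34.9%, 36.6%, 35.0%, 46.4%, 46.3% and 44.8%. Without thinning, 67.1% to 90.2% of myeloid cells, more deeply covered, and 60.8% to 77.2% of T cells had at least 2 member UMIs, and the order of the 2 gates turned in all 6 libraries.

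Cells with an Mki67 UMI held on average more of the other mitotic members than cells without in the myeloid, T and epithelial gates. The means were larger in T and epithelial cells than in myeloid cells. In T cells of the WT T-cell library the 421 thinned cells with an Mki67 UMI held a mean of 5.88 UMIs of the other mitotic members, against 0.931 in the 2269 cells without. In epithelial cells of the IL34KO macrophage library the means were 5.13 and 1.49. In myeloid cells of the GVHD library they were 1.05 in 318 cells and 0.356 in 1879, and in those of the BM library 0.887 in 177 and 0.218 in 1897. Over all libraries, cells with an Mki67 UMI held a mean of 0.887 to 1.24 other mitotic UMIs in the myeloid gate and 4 to 6.56 in the T gate, and 4.54 to 5.13 in the epithelial gate of the last 4 libraries. Such T cells numbered from 10 in BM to 421 in the WT T-cell library. Among myeloid cells with at least 2 thinned UMIs of either phase, S-phase UMIs alone passed in 50% of BM and 23.7% to 33.4% of the other libraries' cells, and both phases together in 13.9% to 21.0%. In T cells of the T-cell libraries both phases passed together in 34.2% and 34.7%.

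Myeloid cells of the GVHD and BM libraries were compared first. The mitotic sum was 493 CPM in GVHD and 350.1 CPM in BM, a ratio of 1.41 (1.38 to 1.44), and the S-phase sum was 293 and 295 CPM, a ratio of 0.994 (0.967 to 1.02). Scaling by TMM or by the median of ratios in place of the total count adds 0.13 or 0.16 to every log2 ratio of this pair and puts the S-phase sum at 1.09 or 1.11, so no direction is given for it. Members at 5 CPM or more in either library were counted as measured, so a member could enter through GVHD alone, where it was higher. The counts were not repeated with the floor required in both libraries. Of 22 measured mitotic members 13 were at least 1.5-fold higher in GVHD and 0 lower, beside 15.3% higher and 18.8% lower among 9835 genes (with TMM 20.9% and 14.8%, where the members' counts were the same). Of 13 measured S-phase members 2 were higher and 0 lower. The median log2 ratio was 0.65 for mitotic members, 0.22 for S-phase members and -0.01 for all genes measured.

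The 5 measured mitotic members with the highest ratios were Bub1b, Nusap1, Ccnb2, Cdca3 and Bub1. Bub1b was 30.3 CPM in GVHD and 9.25 in BM (3.28-fold, 2.88 to 3.74), and Bub1 5.42 and 2.75 (1.97-fold, 1.54 to 2.56). Ccnb2, a cyclin that drives mitotic entry with Cdk1, was 23.1 and 11.4 CPM (2.03-fold, 1.80 to 2.30), and Ccnb1 6.22 and 3.24 CPM (1.92-fold, 1.53 to 2.44). Bub1 and Ccnb1 were under 5 CPM in BM and were measured through GVHD alone. Nusap1 was 16.1 and 7.68 CPM (2.09-fold, 1.81 to 2.44) and Cdca3 14.1 and 7.09 CPM (1.99-fold, 1.71 to 2.33). Birc5 and Cdca8, subunits of the chromosomal passenger complex, were 1.66 and 1.75-fold higher. Mki67 was 125 and 82.8 CPM (1.51-fold, 1.44 to 1.59) and Top2a 45.6 and 34.2 CPM (1.33-fold, 1.24 to 1.44).

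The motor Kif11, several other spindle genes and Cenpa did not follow these members. Kif11 was 1.03-fold (0.885 to 1.21), Hmmr 1.04-fold (0.854 to 1.28), Tpx2, the activator of Aurora A, 1.09-fold (0.944 to 1.27) and Kif23, a motor of cytokinesis, 1.10-fold (0.984 to 1.23). Cenpa was the measured mitotic member below 1, with 43.7 CPM in GVHD and 56.8 in BM (0.770-fold, 0.721 to 0.821). Stmn1 was 1.09-fold (1.02 to 1.16).

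The S-phase members split. Pclaf, a small partner of PCNA, was 21.4 CPM in GVHD and 12.1 in BM (1.77-fold, 1.57 to 2.00), Mcm4 22.1 and 14.2 CPM (1.56-fold, 1.39 to 1.75), Gins2, a helicase cofactor, 1.32-fold (1.12 to 1.56) and Mcm5 1.26-fold (1.09 to 1.47). Mcm6, from the same helicase ring, was 9.90 and 13.2 CPM (0.750-fold, 0.655 to 0.860), Mcm3 21.7 and 27.4 CPM (0.792-fold, 0.722 to 0.869) and Pcna 135 and 156 CPM (0.868-fold, 0.836 to 0.902). The promoters of Mcm5 and Mcm6 printed above both hold E2F cores. The 7 members under 5 CPM in both libraries were Ccne1, Ccne2, Cdc6, Cdc20, Aurka, Plk1 and Kif20a.

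This difference moved with the makeup of the gate. Cells with at least 3 resident-macrophage markers (such as C1qa, Mrc1 and Folr2) were 1882 of 2130 myeloid cells in BM and 650 of 2253 in GVHD. Within them the mitotic sum was 465 CPM in GVHD and 307 in BM (1.51-fold, 1.46 to 1.57) and the S-phase sum 1.07-fold (1.02 to 1.12). Among myeloid cells that met no subset's markers, 1580 in GVHD and 217 in BM, the order turned, with a mitotic sum of 493.5 and 665.6 CPM (0.742-fold, 0.711 to 0.774) and an S-phase ratio of 0.726 (0.688 to 0.767). The summed T-cell markers in the myeloid gate were 33.2 CPM in BM and 13.6 in GVHD, and the epithelial markers 38.2 and 40.9 CPM. B-cell and plasma-cell markers were 127.9 CPM in BM and 16.6 in GVHD, and stromal and endothelial markers 107.7 and 31.3 CPM. The part of these in the result was not tested, and the labels do not tie either 10x kit they name, 5′ or 3′, to a library. With the shared BM barcodes kept the mitotic ratio was 1.31. At a floor of 20 CPM 5 mitotic members were 1.5-fold higher, and the share of all genes was not counted at that floor.

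**Figure D5:**
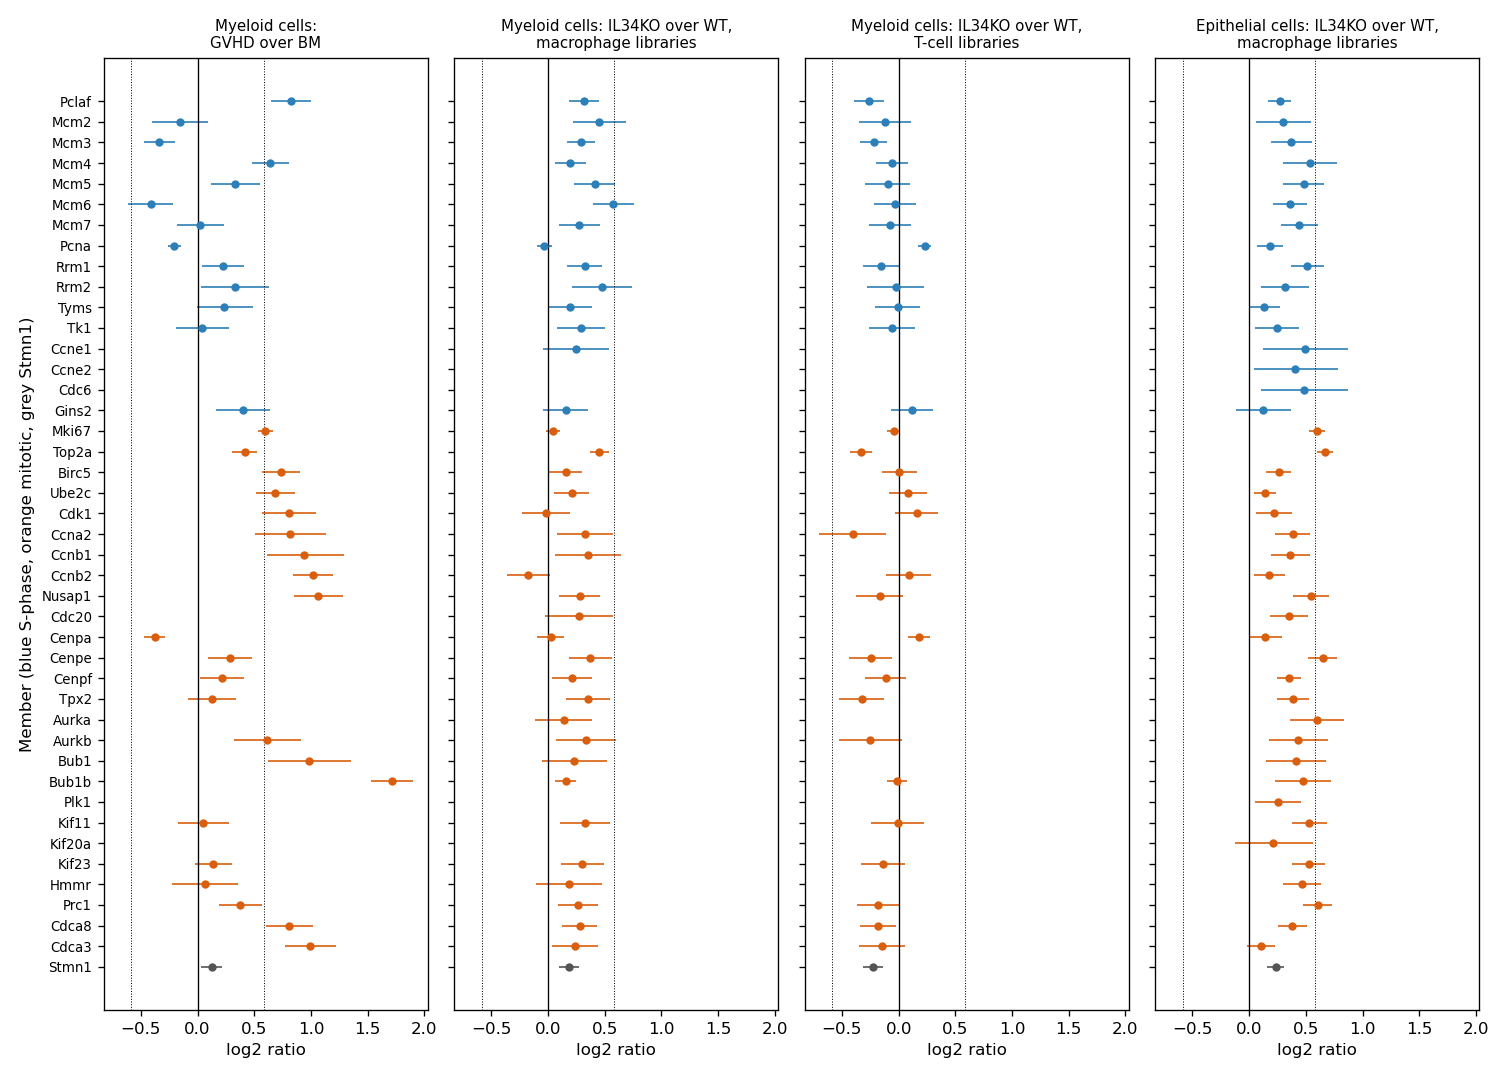
Log2 ratio of each measured member between 2 libraries of a gate, with its exact 95% interval (counting error only), for 3 myeloid comparisons and the epithelial comparison of the macrophage libraries; dotted lines mark 1.5-fold either way, and members under 5 CPM in both libraries have no point. Mitotic members spread to the right in GVHD over BM, with Bub1b farthest and Cenpa to the left, and all 43 members lie right of 0 in epithelial cells.

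In the WT and IL34KO macrophage libraries, myeloid cells of the library labelled IL34KO held slightly more of both groups. The mitotic sum was 465 CPM against 407 (1.14-fold, 1.12 to 1.17) and the S-phase sum 281 against 245 (1.15-fold, 1.12 to 1.18). Of 14 measured S-phase and 24 measured mitotic members 0 reached 1.5-fold in either direction, beside 0.739% of 9202 genes higher and 1.53% lower. Ratios were above 1 for 13 of the 14 and 22 of the 24, where 4582 of the 9202 genes were. Median log2 ratios were 0.29 and 0.25, and -0.00 for all genes.

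The S-phase members with the highest ratios were Mcm6, Rrm2, Mcm2 and Mcm5, and those with the lowest Pcna, Gins2, Tyms and Mcm4. Mcm6 was 14.8 CPM against 9.95 (1.49-fold, 1.31 to 1.69), Rrm2, the small subunit of ribonucleotide reductase, 6.86 against 4.92 (1.39-fold, 1.16 to 1.67), Mcm2 8.60 against 6.30 (1.37-fold, 1.16 to 1.61) and Mcm5 13.8 against 10.4 (1.33-fold, 1.17 to 1.51). Pcna was 84.9 against 86.8 CPM (0.978-fold, 0.933 to 1.03), Gins2 1.11-fold (0.971 to 1.28), the thymidylate synthase Tyms 1.14-fold (0.999 to 1.31) and Mcm4 1.15-fold (1.04 to 1.26). Top2a was 61.5 against 45.0 CPM (1.37-fold, 1.29 to 1.45), Cenpe, a kinetochore motor, 1.30-fold (1.14 to 1.47), Ccnb1 1.28-fold (1.05 to 1.56) and Tpx2 1.28-fold (1.12 to 1.46). Mki67 was 103 against 100.3 CPM (1.03-fold, 0.988 to 1.08), Cdk1 0.988-fold (0.852 to 1.15) and Ccnb2 0.887-fold (0.777 to 1.01). Stmn1 was 1.14-fold (1.07 to 1.21). Summed epithelial markers in this gate were 176 CPM in the IL34KO and 130 in the WT library, and T-cell markers 14.2 and 9.75 CPM, and their part in the result was not tested. Among resident-macrophage-marked cells (748 in IL34KO, 948 in WT) the mitotic ratio was 1.12 (1.08 to 1.17) and the S-phase ratio 1.02 (0.961 to 1.07), whose interval includes 1. In myeloid cells of no subset (2005 and 2112) the ratios were 1.18 (1.15 to 1.21) and 1.19 (1.15 to 1.23).

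Myeloid cells of the 2 T-cell libraries did not repeat this. The mitotic sum was 399.8 CPM in the library labelled IL34KO and 421 in WT (0.95-fold, 0.93 to 0.969) and the S-phase sum 264 and 261 (1.01-fold, 0.986 to 1.04). With cells weighted equally the mitotic ratio was 1.02, and without Pcna the S-phase ratio was 0.923, so neither direction held under every alternative. Of 13 and 19 measured members 0 reached 1.5-fold, beside 0.861% higher and 0.403% lower of 9171 genes. Ratios were above 1 for 2 of the 13 and 5 of the 19, and for 4934 of the 9171 genes. Pcna was 109 against 92.8 CPM (1.17-fold, 1.13 to 1.22) and Cenpa 38.6 against 34.0 (1.13-fold, 1.06 to 1.22), the members whose interval was above 1. Top2a was 37.3 against 47.0 CPM (0.794-fold, 0.744 to 0.847), Ccna2, the cyclin of S phase and G2, 0.756-fold (0.616 to 0.924), Pclaf 0.832-fold (0.759 to 0.912), Mcm3 0.858-fold (0.789 to 0.932) and Stmn1 0.854-fold (0.803 to 0.909). Of the 13 measured S-phase members 2 had an interval below 1 here, Pclaf and Mcm3. Top2a was thus on opposite sides of 1 in the 2 pairs of libraries, with an interval that excluded 1 in each, and that difference was not tested.

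T cells of the T-cell libraries held nearly equal amounts. The mitotic sum was 1857 CPM in the library labelled IL34KO and 1824 in WT (1.02-fold, 0.996 to 1.04) and the S-phase sum 981 and 950.4 (1.03-fold, 1.0 to 1.06), and both ratios were under 1 with TMM or median-of-ratios scaling (0.969 to 0.984). All 43 members were measured and 0 reached 1.5-fold, beside 2.17% of 9787 genes higher and 1.7% lower (1.51% and 2.26% with TMM). Median log2 ratios were 0.03 for S-phase members, 0.01 for mitotic members and 0.06 for all genes. The S-phase members with the highest ratios were Ccne2 with 18.5 against 13.9 CPM (1.33-fold, 1.04 to 1.68), Rrm2 (1.21-fold, 1.03 to 1.43) and Pcna with 163 against 138 CPM (1.18-fold, 1.09 to 1.27). Kif23 was 42.0 against 33.9 CPM (1.24-fold, 1.06 to 1.45) and Cenpa 224 against 191 (1.18-fold, 1.10 to 1.26). Mki67 was 254 against 253 CPM (1.0-fold, 0.946 to 1.06), Mcm5 1.03-fold (0.903 to 1.18), Ccnb1 1.03-fold (0.836 to 1.26) and Top2a 0.943-fold (0.890 to 0.999). Stmn1 was 0.895-fold (0.842 to 0.95). The intervals of the summed ratios exclude a difference of 1.5-fold at the level of counting error.

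CD8 and CD4 T cells, separated by a UMI of Cd8a or Cd8b1 alone or of Cd4 alone, differed more than the libraries did. In the T-cell libraries the mitotic sum was 2139 CPM in 1587 CD8 cells and 1366 in 711 CD4 cells for WT (1.57-fold, 1.51 to 1.63), and 2282 and 1159 for IL34KO (1.97-fold, 1.87 to 2.07). The S-phase ratios were 1.28 and 1.56. In the IL34KO macrophage library, with 138 and 92 cells, the order was the other way, with a mitotic ratio of 0.895 (0.836 to 0.959) and an S-phase ratio of 0.783 (0.712 to 0.861). IL34KO over WT was 1.07-fold in CD8 and 0.849-fold in CD4 cells for mitotic members, and the difference between these was not tested.

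Epithelial cells of the macrophage libraries held more of every member in the library labelled IL34KO. The mitotic sum was 1984 CPM against 1474 (1.35-fold, 1.32 to 1.37) and the S-phase sum 691 against 555 (1.24-fold, 1.21 to 1.28). All 43 ratios were above 1 and 40 intervals lay above 1, where 6149 of 10442 genes had a ratio above 1. At 1.5-fold 5 mitotic and 0 S-phase members were higher, beside 3% of genes higher and 1.09% lower. With TMM, which takes 0.05 from every log2 ratio, 2 mitotic members and 2.35% of genes were 1.5-fold higher and 1.55% lower. Median log2 ratios were 0.37 and 0.39, and 0.05 for all genes.

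The 5 members past 1.5-fold were Top2a with 274 against 173 CPM (1.59-fold, 1.51 to 1.67), Cenpe with 90.5 against 57.6 (1.57-fold, 1.44 to 1.72), Prc1, which bundles the central spindle, with 87.8 against 57.8 (1.52-fold, 1.39 to 1.66), Mki67 with 292 against 193 (1.51-fold, 1.44 to 1.59) and Aurka with 26.2 against 17.3 (1.51-fold, 1.29 to 1.78). Just inside and outside this group lay Aurka at 1.51 and Nusap1 at 1.46. Mcm4 (1.45-fold), Rrm1, the large subunit of ribonucleotide reductase (1.43-fold), Ccne1 (1.41-fold) and Mcm5 (1.40-fold, 1.23 to 1.59) led the S-phase members. Ccnb1 was 1.28-fold (1.14 to 1.45), Stmn1 1.18-fold (1.12 to 1.24), Pcna 1.14-fold (1.05 to 1.23), Ube2c, the ubiquitin-conjugating enzyme of the anaphase-promoting complex, 1.10-fold (1.03 to 1.18) and Cdca3 1.08-fold (0.989 to 1.17). With stricter gates or filters 7 S-phase members passed 1.5-fold. The share of all genes was not counted under those settings, so this count is not read as a result about the members. Goblet cells gave a mitotic ratio of 1.52 (264 against 139 cells) and epithelial cells of neither subset 1.29 (439 against 168 cells). The summed myeloid markers in this gate were 317 CPM in IL34KO and 259 in WT, and neutrophil markers 304 and 122 CPM, and their part was not tested.

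In epithelial cells of the T-cell libraries, the mitotic sum was 1422 CPM in the library labelled IL34KO and 1330 in WT (1.07-fold, 1.04 to 1.10) and the S-phase sum 544 and 517 (1.05-fold, 1.01 to 1.09), but TMM scaling, which takes 0.11 from every log2 ratio here, gave 0.993 and 0.977. No direction is therefore given. At 1.5-fold 0 of 43 members differed, beside 3.38% of 10454 genes higher and 1.06% lower (2.14% and 1.67% with TMM), and 30 of the 43 ratios were above 1, where 7031 of the 10454 genes were. Bub1 was 14.9 against 10.9 CPM (1.36-fold, 1.06 to 1.76), Kif23 1.29-fold (1.12 to 1.5), Cenpe 1.26-fold (1.12 to 1.41) and Pcna 91.5 against 74.3 CPM (1.23-fold, 1.12 to 1.36). Aurkb, the kinase of the passenger complex, was 0.789-fold (0.627 to 0.990), Stmn1 0.924-fold (0.860 to 0.993) and Top2a 0.955-fold (0.889 to 1.03). Mki67 was 1.08-fold (1.02 to 1.16), Ccnb1 1.07-fold (0.899 to 1.27) and Mcm5 1.02-fold (0.852 to 1.22).

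Epithelial subsets differed by a wide margin in every library compared. Cells with goblet markers had 1.67 to 2.60-fold the mitotic sum of absorptive colonocytes, and cells of neither subset 2.33 to 2.81-fold. In the WT T-cell library the sums were 1692 CPM in 203 goblet cells, 1826 in 318 cells of neither subset and 650.0 in 344 absorptive colonocytes. The S-phase ratios over absorptive colonocytes were 2.5 to 2.91.

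The macrophage libraries also held a few T cells. GVHD had 194 and BM 161, with S-phase sums of 865 and 567 CPM (1.52-fold, 1.37 to 1.70) and mitotic sums of 1202 and 1024 CPM (1.17-fold, 1.08 to 1.28). Of 16 S-phase members 12 were at least 1.5-fold higher and 0 lower, and of 26 mitotic members 5 were higher and 4 lower, beside 24.4% of 10587 genes higher and 15.3% lower. Mcm5 was 47.5 CPM in GVHD and 19.3 in BM (2.46-fold, 1.43 to 4.36), Rrm2 2.28-fold (1.26 to 4.28), Kif11 2.75-fold (1.83 to 4.21) and Stmn1 1.92-fold (1.5 to 2.48). Ccnb1 was 0.336-fold (0.132 to 0.756), Ube2c 0.594-fold (0.411 to 0.848) and Cenpf, a kinetochore protein, 0.587-fold (0.352 to 0.958). TMM or median-of-ratios scaling moves every log2 ratio of this pair by -0.14 or -0.19, and the counts were not repeated under it. The T-gated cells of BM held 3473 CPM of B-cell and plasma-cell markers, against 7.55 in GVHD, and their part in either sum was not tested. Within CD8 cells, 63 and 74, the S-phase ratio was 1.40 (1.21 to 1.62). The mitotic ratio there was 0.912 (0.818 to 1.02), so no direction is given for the mitotic sum.

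T cells of the IL34KO macrophage library (299) held a mitotic sum of 2285 CPM against 1604 in the 127 of WT (1.42-fold, 1.34 to 1.52) and an S-phase sum of 1207 against 970 (1.24-fold, 1.15 to 1.35). At least 1.5-fold higher were 3 S-phase and 9 mitotic members and 0 were lower, beside 13% of 10009 genes higher and 10.2% lower. Cenpf was 115 against 53.2 CPM (2.16-fold, 1.55 to 3.07), Ccnb2 78.1 against 38.7 (2.02-fold, 1.37 to 3.07), Prc1 102 against 50.8 (2.01-fold, 1.43 to 2.89) and Mki67 322 against 209 (1.54-fold, 1.30 to 1.84). Pcna was 0.991-fold (0.799 to 1.24). Within CD8 cells, 138 and 58, the mitotic ratio was 1.21 (1.10 to 1.32) and the S-phase ratio 1.05 (0.934 to 1.19), whose interval includes 1. The mitotic sum was thus higher in the library labelled IL34KO in the myeloid, T and epithelial gates of the macrophage pair, and also in its cells of no gate (1370 against 1069 CPM) and in barcodes that failed the filters (1203 against 1064 CPM).

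Other genes of the cycle were taken from 7 lists, whose counts in GVHD over BM myeloid cells stand beside the 15.3% of all genes higher and 18.8% lower. In GVHD over BM myeloid cells all 6 measured genes of the spindle checkpoint and kinetochore list, of 16 listed, were above 1. At least 1.5-fold higher were 3 of 6 (median log2 ratio 0.51), led by Cenpw (2.32-fold) and Mad2l1 (1.71-fold). Cenpw (10.77 and 4.64 CPM) and Mad2l1 (6.825 and 3.986 CPM) met the floor of 5 CPM only in GVHD, where they were higher. This count is therefore not read as a result about the list. Of 6 measured cytokinesis and motor genes 2 were 1.5-fold higher (Ckap2l 1.87-fold, Kif15 1.51-fold). G1 cyclins and kinases went otherwise, with 0 of 9 higher and 3 lower, among them Cdk6 at 31.3 CPM in GVHD and 178 in BM (0.176-fold) and Ccnd1 at 22.9 and 58.7 CPM (0.390-fold), genes that carry cells through G1. In the condensin, cohesin and chromatin list 0 of 14 were higher and 2 lower, Pttg1 (0.374-fold) and Espl1 (0.439-fold), the inhibitor and the protease of sister separation. Of 13 CDK inhibitors and quiescence genes 5 were higher and 1 lower, with Btg1 at 2376 and 1178 CPM. Of 13 E2F, FOXM1 and MuvB regulators 3 were higher and 2 lower, and of 15 origin and fork genes 2 were higher and 2 lower. The counts of the condensin, regulator and origin lists lie near the shares of all genes and are not read as results about those lists.

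In epithelial cells of the macrophage libraries 6149 of 10442 genes were above 1, and so were most members of every list but the CDK inhibitors. Above 1 were 16 of 16 checkpoint and kinetochore genes (3 at 1.5-fold, Ttk 1.6-fold and Knl1 1.56-fold among them) and 17 of 17 cytokinesis and motor genes. So were 17 of 18 condensin and cohesin genes and 21 of 23 origin and fork genes, led by Gins1 (1.70-fold). G1 cyclins and kinases were above 1 for 7 of 9 and the E2F, FOXM1 and MuvB regulators for 13 of 16. CDK inhibitors and quiescence genes were above 1 for 6 of 14, with Btg2 at 266 CPM in IL34KO and 390.1 in WT (0.683-fold) and Klf2 at 0.707-fold. In myeloid cells of the same pair Klf2, a quiescence factor, was the gene of that list past 1.5-fold, at 55.7 against 91.2 CPM (0.610-fold), and 0 of 7 measured checkpoint genes, 0 of 6 cytokinesis genes and 0 of 15 origin genes reached 1.5-fold. In T cells of the T-cell libraries 13 of 15 measured inhibitors and quiescence genes were above 1, where 6341 of 9787 genes were and TMM scaling moves every log2 ratio by -0.07. Cdkn2a was the 1 past 1.5-fold, at 12.7 against 7.59 CPM (1.67-fold, 1.23 to 2.28).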

How the data were processed

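Whole-number UMI counts of 32285 genes per barcode were deposited by the authors as 1 matrix per library (6 in all), made with Cell Ranger 7.0.1 against mm10, per the submitters' processing notes; the read filters inside that step are not recorded in the labels. Barcodes needed 500 genes or more and no more than 10% mitochondrial UMIs (2546 to 14061 cells). A cell entered a gate with UMIs of at least 4 of that gate's markers and 2 times as many as of any other set, and cells with UMIs of at least 5 neutrophil markers (one of them Cxcr2, Retnlg or Hdc) left the myeloid gate. BM barcodes also found in GVHD were dropped. Doublets were kept, because the automatic calls of Scrublet marked under 0.5% of barcodes in 5 libraries.

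Member UMIs were summed per gate and library and divided by the gate's total. Levels have exact Poisson, shares exact Clopper-Pearson and ratios exact conditional binomial 95% intervals. Genes at 5 CPM or more in either library were measured, and 1.5-fold was the call. A gene under this floor in 1 library thus entered through the library where it was higher. Shares used cells thinned to 1500 UMIs, and leave out 4 to 477 shallower cells per myeloid or T group. The 5 highest and 5 lowest members per phase with at least 20 UMIs were eligible to be named per comparison, besides Mki67, Top2a, Pcna, Mcm5, Ccnb1 and Stmn1, and members at the centre of a role or an exception were added after their values were seen. Members, lists and markers were chosen with earlier results of these data known.

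TMM factors came from edgeR 4.0.16 and median-of-ratios factors from DESeq2 1.42.0, as scalings with no model. Python 3.11.15, numpy 2.4.6, scipy 1.17.1, pandas 2.3.3, scanpy 1.11.5 and R 4.3.3 were used. On simulated counts 94.9% to 95.8% of the intervals held the true fold. These counts were independent Poisson draws, as the intervals assume, so they check the calculation and not the spread between cells or animals. Alternatives were other gates, filters, floors, scalings, thinning depths and UMI minimums, doublets removed, cells weighted equally and a leading member left out. Chosen after seeing the data were neutrophil-marker cells kept and stromal cells as background. No whole untransplanted colon, and no epithelial comparison of GVHD with BM, was analysed here.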

Additional observations from a re-analysis of the deposited data

Results flagged for a closer look

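None of the differences named here was tested, since each group is 1 library. The ratio of the library labelled IL34KO to WT for the summed mitotic members of myeloid cells was 1.142 in the macrophage libraries and 0.9496 in the T-cell libraries, with intervals on opposite sides of 1.

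Within the GVHD over BM comparison, cells with resident-macrophage markers gave 1.069 for S-phase and 1.515 for mitotic members, and the other myeloid cells 0.7261 and 0.7415. In the T-cell libraries the S-phase ratio of IL34KO over WT was 0.9512 in resident-macrophage-marked cells and 1.069 in other myeloid cells.

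CD8 T cells of the T-cell libraries gave 1.068 (S-phase) and 1.067 (mitotic) for IL34KO over WT, and CD4 T cells 0.871 and 0.8486. Epithelial cells of these libraries gave mitotic ratios of 1.349 in absorptive colonocytes, 0.8679 in goblet cells and 1.116 in the other epithelial cells.

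Mitotic members were also found in barcodes that the comparisons did not use. In barcodes that failed the filters they summed to 175.2 CPM in BM, 340.9 in GVHD, 1064 in WT macrophage, 1203 in IL34KO macrophage, 610.4 in WT T-cell and 531.4 in IL34KO T-cell libraries. In filtered cells of no gate they summed to 592.2, 455.6, 1069, 1370, 1045 and 991.3 CPM, in the same order. The BM barcodes shared with GVHD held 527.3 CPM of mitotic members, over 2048 filtered cells of all gates together. The 350.1 CPM of the kept BM cells is for the myeloid gate alone, so the groups are unlike.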

How the results depend on the processing

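Each library is its group, so none was left out. No paired analysis was possible because each group is 1 library. The ratios below are sums of the S-phase or mitotic members, and the cause of each change was not tested.

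For GVHD over BM myeloid cells the S-phase ratio was 1.09 with TMM, 1.108 with the median of ratios, 1.112 with cells weighted equally and 1.133 without Pcna, and the mitotic ratio 1.359 with looser gates, 1.365 with doublets removed, 1.545 with TMM, 1.571 with the median of ratios, 1.714 with cells weighted equally and 1.315 with the shared barcodes kept. For IL34KO over WT myeloid cells of the macrophage libraries, the S-phase ratio was 1.242 without Pcna, and the mitotic ratio 1.168 with stricter gates, 1.104 with cells weighted equally and 1.179 without Mki67. In the T-cell libraries, the myeloid S-phase ratio was 1.04 with looser gates, 1.052 with doublets removed, 1.06 with cells weighted equally and 0.9228 without Pcna, and the mitotic ratio 0.9915, 0.9704 and 1.017 under the first 3 of these. T cells gave S-phase ratios of 0.9844 with TMM and 0.9819 with the median of ratios, and mitotic ratios of 0.9713, 0.9688 and, with stricter filters, 0.996.

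Epithelial cells of the macrophage libraries gave S-phase ratios of 1.37 with stricter gates, 1.302 and 1.395 with looser and stricter filters, 1.2 with TMM, 1.195 with the median of ratios and 1.13 with cells weighted equally, and mitotic ratios of 1.457, 1.321, 1.377, 1.299, 1.293 and 1.274 in the same order and 1.321 without Mki67. In the T-cell libraries the epithelial S-phase ratio was 1.099 with looser gates, 0.9928 with stricter filters, 0.9767 with TMM, 0.979 with the median of ratios and 0.8798 with cells weighted equally, and the mitotic ratio 1.038 with looser filters and 0.9069, 0.9926, 0.995 and 0.9538 in that order. Thus the direction held under all alternatives run for GVHD over BM mitotic members and for both sums of the macrophage pair in myeloid and epithelial cells, and turned under at least 1 for the GVHD over BM S-phase sum and for both sums of the T-cell pair in myeloid, T and epithelial cells. For T cells of the macrophage libraries only the scalings are given. TMM and the median of ratios move every log2 ratio by -0.14 and -0.19 for GVHD over BM. For IL34KO over WT the shifts are 0.02 and 0.04. The share of cells with at least 2 member UMIs was higher in T than in myeloid cells in 6 libraries when thinned and in 0 without thinning, and higher in T than in epithelial cells in 2 when thinned to 1500 UMIs, in 4 at the greater thinning depth, in 4 at a minimum of 1 UMI and in 1 without thinning. Of the member counts past 1.5-fold, 201 values stayed within 1.5 times the reported count and 15 moved; of the summed ratios 67 stayed and 49 moved, of the phase splits 10 and 4, and of the shares of cells 7 and 201. In T cells of the GVHD and BM libraries 1115 mitotic UMIs each carry the comparison, and members under 5 CPM were not counted as measured.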

Other observations

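Monocyte-marked myeloid cells held fewer mitotic UMIs than resident-macrophage-marked cells in 3 of the 4 libraries with at least 50 of each. The ratios of the summed mitotic CPM were 0.743 (0.696 to 0.794) in the WT macrophage library, 0.608 (0.565 to 0.653) in the IL34KO macrophage library and 0.449 (0.372 to 0.536) in the WT T-cell library, and 0.873 (0.731 to 1.03) in the IL34KO T-cell library, whose interval includes 1. The S-phase ratios were 0.615, 0.796, 0.709 and 1.07. In BM, the 217 myeloid cells of no subset held 2.17 times the mitotic CPM of the 1882 resident-macrophage-marked cells (666 against 307 CPM), while in GVHD the same ratio was 1.06 (1.03 to 1.10).

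Cells set aside for neutrophil markers, 960 in the WT and 1486 in the IL34KO macrophage library, held 456 and 522 CPM of mitotic members, 1.12-fold the level of the myeloid gate in each. They also held 1355 and 1038 CPM of the macrophage gene C1qa, so they are named by their rule and not as a cell type.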
